A study of Mus musculus with 8 samples.

Results

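The regions described here were stretches of mouse chromatin, away from any annotated promoter, in which an open-chromatin peak was called in every library of the study. The peaks of 8 lists were merged wherever they shared at least 1 bp, a merged region was counted as called in a library when a peak of that library overlapped it, and a region was kept when it was called in all 8 libraries with its midpoint more than 2 kb from the transcription start site (TSS) of every annotated transcript. Of 37230 merged regions, 4259 were called in all 8 libraries and 2026 of these were distal, which was 5.44% of all regions and 8.39% of the 24147 distal regions. The other 2233 were promoter regions. The members were thus chosen by the peak calls of these same libraries, and their presence in every library is not a result.

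The libraries were made by formaldehyde-assisted isolation of regulatory elements and sequencing (FAIRE-seq) from 2 cell lines, with 2 replicates in each of 4 groups. EpH4 is a mouse mammary gland epithelial line, and EpRas is its derivative transformed with H-Ras. Each line was left untreated or was given 1 ng/ml TGF-β3 for 8 days, so that the groups were EpH4 untreated, EpH4 TGF-β, EpRas untreated and EpRas TGF-β. EpH4 cells grew in medium with 10% serum and EpRas cells in medium with 4% serum, so that H-Ras and serum cannot be told apart in any comparison of the lines, and each genotype was represented by a single line. Whether the replicates were separate cultures is not given in the labels, although the methods speak of biological replicates, and all p-values measure only the spread between these libraries.

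In FAIRE, sheared chromatin is extracted with phenol, and the DNA left in the aqueous phase comes mainly from enhancers, promoters and other sites freed of nucleosomes. Distal open regions are often enhancers or insulators. The AP-1 dimers of FOS and JUN proteins bind the near-palindromic word TGAGTCA. They work downstream of Ras and MAP kinase signalling and are among the common occupants of enhancers in epithelial cells. CTCF is the main insulator protein of vertebrates and marks the borders of chromatin loops. RUNX, TEAD and TFAP2 factors bind many enhancers of the mammary epithelium, and TGF-β acts through SMAD proteins that bind beside them.

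Sequences that carry the findings were read from the RefSeq copy of GRCm38.p6, which is the mm10 build of the peak lists, on the + strand. The first 3 came from the members with the most AP-1 words among those whose own words were mostly unique in the genome, and capitals mark TGAGTCA or its reverse complement.
chr16:8810779-8811035, nearest coding gene Usp7: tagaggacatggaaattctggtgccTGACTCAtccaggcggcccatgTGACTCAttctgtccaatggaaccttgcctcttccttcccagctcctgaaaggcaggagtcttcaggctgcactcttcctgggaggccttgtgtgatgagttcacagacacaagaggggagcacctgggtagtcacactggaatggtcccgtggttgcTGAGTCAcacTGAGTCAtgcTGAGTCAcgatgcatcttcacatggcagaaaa
chr17:45359578-45359800, Cdc5l: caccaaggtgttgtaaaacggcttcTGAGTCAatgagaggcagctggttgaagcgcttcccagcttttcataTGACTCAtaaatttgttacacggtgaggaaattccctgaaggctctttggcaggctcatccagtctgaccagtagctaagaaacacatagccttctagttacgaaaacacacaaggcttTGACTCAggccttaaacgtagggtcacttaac
chr1:36325871-36326103, Arid5a: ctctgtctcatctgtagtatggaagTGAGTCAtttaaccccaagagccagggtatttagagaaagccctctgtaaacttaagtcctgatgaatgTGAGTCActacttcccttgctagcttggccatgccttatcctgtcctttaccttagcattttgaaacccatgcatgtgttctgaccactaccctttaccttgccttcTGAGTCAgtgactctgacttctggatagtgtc

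The next 3 stretches lay around the AP-1 word of members near genes that are discussed below, and a member near Myc, Fn1 (fibronectin) or Runx1 is shown for each.
chr15:62321124-62321232, Myc: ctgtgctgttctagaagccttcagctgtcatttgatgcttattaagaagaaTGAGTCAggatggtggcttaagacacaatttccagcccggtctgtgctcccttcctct
chr1:71893694-71893802, Fn1: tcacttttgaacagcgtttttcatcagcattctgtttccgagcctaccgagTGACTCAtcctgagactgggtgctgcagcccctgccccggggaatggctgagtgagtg
chr16:92930248-92930356, Runx1: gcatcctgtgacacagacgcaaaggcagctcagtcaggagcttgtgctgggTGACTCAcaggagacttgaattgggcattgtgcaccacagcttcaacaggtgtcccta

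The CTCF word was rare in these regions, and the 2 highest scored members that held it are shown with the word in capitals.
chr16:98023202-98023273, B230307C23Rik: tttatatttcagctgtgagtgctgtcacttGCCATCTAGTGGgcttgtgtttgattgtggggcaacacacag
chr1:179477218-179477289, Smyd3: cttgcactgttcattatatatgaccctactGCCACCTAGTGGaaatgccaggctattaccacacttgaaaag

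In 2 members that were higher in EpRas the middle of the region is shown, with the AP-1 word in capitals in the second.
chr4:17163663-17163802, Mmp16: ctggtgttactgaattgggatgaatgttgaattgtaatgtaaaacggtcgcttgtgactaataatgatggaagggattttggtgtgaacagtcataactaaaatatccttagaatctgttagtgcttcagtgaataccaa
chr4:89061767-89061906, Mtap: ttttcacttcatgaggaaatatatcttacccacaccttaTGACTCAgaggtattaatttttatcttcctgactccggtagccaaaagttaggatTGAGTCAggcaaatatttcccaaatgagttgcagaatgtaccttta

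The last 2 came from members whose score hardly changed between libraries. Capitals mark words that were over-represented among the members in the first, and in the second a run of bases that also occurs in the mitochondrial chromosome.
chr12:74804097-74804237, Kcnh5: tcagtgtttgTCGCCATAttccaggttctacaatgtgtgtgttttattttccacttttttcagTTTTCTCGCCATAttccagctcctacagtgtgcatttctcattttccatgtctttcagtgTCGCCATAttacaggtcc
chr12:97061418-97061577, Galc: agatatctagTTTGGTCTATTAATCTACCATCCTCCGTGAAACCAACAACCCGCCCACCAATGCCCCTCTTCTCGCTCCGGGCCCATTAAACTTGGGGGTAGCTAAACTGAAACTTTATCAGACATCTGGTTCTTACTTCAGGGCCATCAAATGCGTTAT

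The 2026 distal regions had a median width of 426 bp and lay at a median of 13.2 kb from the nearest TSS. There were 996 between genes, 970 in introns, 30 in other exons, 20 in untranslated regions and 10 in coding exons. Mean GC content was 47.8%, against 44.2% in the 8688 distal regions called in a single library, and there were 7.51 CpG dinucleotides in the 500 bp around the midpoint on average, against 5.57. The median distance to a TSS in the regions called once was 13.6 kb. The members thus lay about as far from genes as the regions called once and held more GC. The higher GC was not particular to them. Mean GC content was 47.4% in distal regions called in 7 libraries. It was 48.8% in those called in all 4 EpH4 libraries and no EpRas library, and 44.6% in the reverse class.

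The lists held 10821 to 27337 peaks each, 129466 in all, and no read counts, so that the sequencing depth is unknown and no counting error could be given. Each peak carried a score from the authors' peak caller, of 5.08 to 778.82 over the lists, whose unit is not stated. Within-list percentiles of that score (0 lowest, 100 highest) were used for levels, and log2 scores quantile-normalized over the libraries for differences. Markers of the labelled cell type were looked up by promoter peaks alone. Of 8 luminal epithelial markers 0 had a promoter peak in all 8 libraries and 6 in some, with Krt8 and Cldn4 in 5, Cdh1 and Esrp2 in 4, Krt18 in 3 and Esrp1 in 2, whereas Epcam and Krt19 had none. Of 4 basal markers, the keratin gene Krt14 had one in all 8 libraries and Krt5, Trp63 and Acta2 in none. Of 4 fibroblast markers, Col1a2 had one in 7 libraries, Pdgfra in 4, Col1a1 in 2 and Twist2 in none. Of 3 leukocyte markers Cd68 had one in 3 libraries and the others in none, and none of 3 endothelial markers had one.

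Members ranked high in every list, although their rule used no score. The median percentile of the members was 72.5 and 72.2 in the EpH4 untreated libraries, 79.8 and 67.0 in EpH4 TGF-β, 75.8 and 71.0 in EpRas untreated and 86.6 and 78.0 in EpRas TGF-β. Other distal peaks had medians of 36.3 to 39.9 in the same lists. Peaks at the members had a median width of 290 to 362 bp by library, and the other distal peaks of 230 to 248 bp. Score and call came from the same peak calling, so these ranks are a description.

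**Figure D1:**
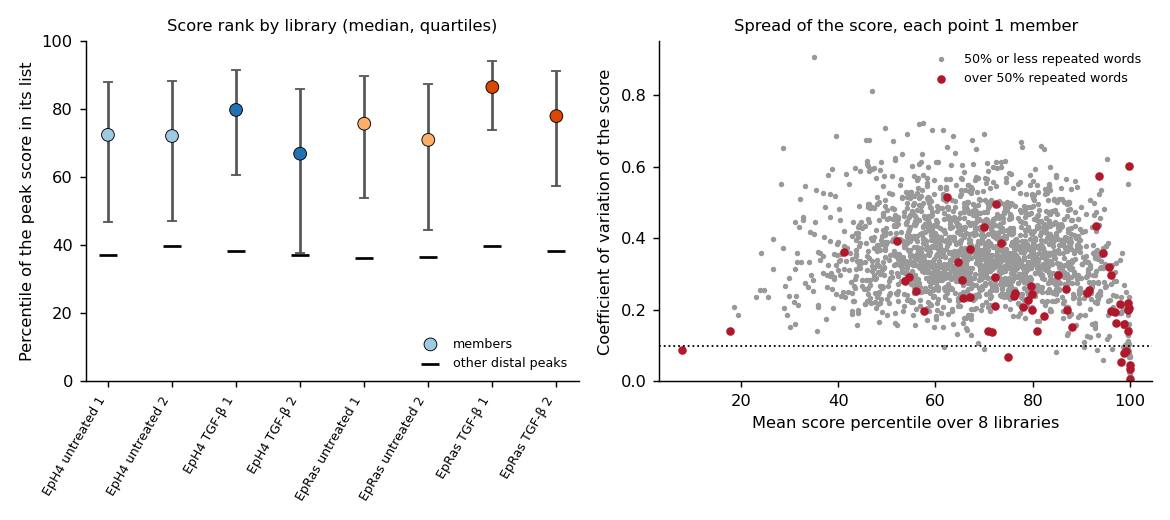
Left, score percentile of the members' peaks in each list (0 to 100), with circles at the median, whiskers at the quartiles and dashes at the median of the other distal peaks. Member medians lie between 67.0 and 86.6 in the 8 libraries and the dashes between 36.3 and 39.9. Right, each point is 1 of the 2026 members, with its mean percentile over the libraries on the x axis and the coefficient of variation of its score on the y axis. Red points have over 50% of their 36-base words elsewhere in the genome, and the dotted line is at 0.1.

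Between the lines, the members' median percentile was 79.8 or lower in EpH4 and 86.6 or lower in EpRas, with overlapping libraries, and the mean difference of 4.98 percentile points was within the spread (exact permutation test, two-sided, 70 assignments, p = 0.286, adjusted p = 0.377). Median peak width at the members was 21.75 bp larger in EpRas (exact permutation p = 0.229, adjusted p = 0.377). The members took 11.8% to 33.5% of the distal peaks of a list, with the lowest share in the longest list, EpRas TGF-β replicate 1, and the highest in the shortest, EpH4 TGF-β replicate 2. The EpRas minus EpH4 difference in that share was −7.56 points (exact permutation p = 0.143, adjusted p = 0.377), and with the same number of peaks taken from each list the difference turned to 0.370 points and the percentile difference became 0.325 points. With TGF-β the differences were 4.97 percentile points, 16.25 bp and −5.39 points, with adjusted exact permutation p of 0.377 to 0.400. With equal peaks they were 1.04 percentile points, 12.75 bp and −1.26 points, the last with an exact permutation p of 0.0286 (adjusted p = 0.171). The smallest p this design allows is 0.0286.

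The members nearest to the distance limit had midpoints 2026 bp from the TSS of Zfand1, 2028 bp from Kmt5b and 2028 bp from Gm12503, and the regions just outside lay 1999 bp from Gm45731, 1998 bp from Gm23566 and 1996 bp from Ptprs. The members with the lowest mean percentile were chrY:4153216-4153484 at 7.80, chr16:86820757-86821266 at 17.7 and chr10:84416710-84417088 in a Nuak1 intron at 18.6. Distal regions called in 7 libraries numbered 1329. The highest of them by mean percentile were chr19:38038186-38038660 near Myof at 94.4, chr4:88515509-88515963 near Ifnb1 at 93.3 and chr19:18766400-18766778 in Trpm6 at 93.2. The library that missed such a region was most often EpH4 TGF-β replicate 2, the shortest list, with 383 regions (28.8%), and least often EpRas TGF-β replicate 1, the longest list, with 10 (0.752%).

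The 12 members of highest mean percentile shared 2 features that the rule did not use, a nearly constant score and the lack of an AP-1 word. The highest, chr9:35305077-35305742 in an intron and 30.2 kb from Rpusd4, scored 775.14 and 770.11 in EpH4 untreated, 778.82 and 773.81 in EpH4 TGF-β, 772.15 and 762.91 in EpRas untreated and 775.99 and 759.96 in EpRas TGF-β, and was the top peak of every list. Next, chr12:97061287-97061917, at 1155 kb from Galc, scored 641.41, 637.82, 628.24, 593.92, 648.37, 650.92, 674.37 and 647.26 in the same order. The third, chr12:3109722-3110276, scored 514.78 to 526.46. The lines overlapped at the highest member and at chr12:3109722-3110276. Near Galc every EpRas library was above every EpH4 library by a small margin, and the share of all regions without overlap was not counted. No region of the 12 was called. However, quantile normalization gave each of the members just described the same log2 score in every library (9.59, 9.32 and 9.03 in order of rank). The test therefore cannot decide whether the deposited scores of these members differed between lines. The others were near or within Chl1, G6pd2, Gm5426, Nxph1, 2210408I21Rik, Abcb11, Cdk5rap2, Kcnh5 and Dpy19l1 and ranged from 237.84 to 483.29. Beside them, the median score of all members was 15.6 to 33.9 by library.

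Over all members the coefficient of variation of the score had a median of 0.351, and 36 members (1.78%) lay under 0.1. Of the 25 members with the highest percentile, 19 were among these 36. Their edges were fixed as well, with a median SD of the start of 2.01 bp and of the end of 2.47 bp between libraries, against 33.7 and 33.8 bp in the other members. They had a median of 40.7% of their bases in lower-case (repeat) sequence of the reference, against 7.45%, and 30 of the 36 held at least one 36-base word that occurs elsewhere in the genome. The AP-1 word stood in 4 of the 36 (11.1%) and in 58.8% of the other members. Among the promoter regions called in all libraries, 27 (1.21%) had such a score.

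Of these 36 members, 6 shared words with the mitochondrial chromosome, and in 5 over 20% of their words did so. The member near Galc shared a run of 242 bases with it, part of which is printed above. The words of 8 letters with the largest excess in the members over other distal regions were TATGGCGA in 21 members (1.04% against 0.190%, 5.46 times), GCGAGAAA in 29 (3.81 times) and CGAGAAAA in 36 (3.25 times). As background, these letters also stand in the unit of the mouse major satellite, the tandem repeat of pericentromeric heterochromatin. All 3 stood in 13 members, of which 8 had a coefficient of variation under 0.1. The part of repeated sequence in these scores was not tested. Words were repeated over 50% in 58 members. In all, 86 members had a near-constant score or repeated sequence, and 1940 (95.8%) had neither.

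Among those 1940, the members of highest percentile, which were chosen after their values were seen, were chr9:123461726-123462333 near Lars2, at 101.89 to 186.17 over the libraries, chr5:146260851-146261463 in Cdk8, at 102.66 to 171.04, and chr15:75085540-75087204 near Ly6c2, at 90.06 to 168.33. The AP-1 word was missing from these as well. Of the 12 highest, 2 held it.

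The member scores ordered the libraries by line. The correlation of normalized log2 scores over the 2026 members, which are not independent replicates, was 0.671 to 0.729 between replicates, 0.640 to 0.708 between treatments of a line and 0.555 to 0.633 between lines. Peak positions held still. The median shift of the peak midpoint between a pair of libraries was 20 to 28.5 bp, with 20 to 26 bp between replicates and 21 to 28.5 bp between lines.

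The AP-1 word was the most frequent of the 22 motifs searched, on both strands, in the 500 bp around the midpoint. TGAGTCA stood in 1175 members, 58.0% (Wilson 95% interval 55.8% to 60.1%). It stood in 39.5% of the distal regions called in 1 library, 50.2% of those called in 4 and 58.9% of those called in 7, so that the share rose with the number of libraries and was level from 6 to 8. In promoter regions called in all libraries it was 13.7%. In windows of the same size 10 kb downstream of the members that touched no peak it was 9.18% (178 of 1938), so that members held the word 6.31 times as often. Distal regions called in all 4 EpRas libraries and in no EpH4 library held it at 60%, and those called in all 4 EpH4 libraries and no EpRas library at 44.2% (37.7% to 50.9%). Among each list's highest scored peaks, by the cut used for CTCF below, 55.0% to 60.8% of those in members held the word. In other distal regions it was 52.1% to 66.6%. The other regions were higher in EpRas untreated replicate 2 (56.8% against 55.0%) and in EpRas TGF-β (65.9% against 60.8% and 66.6% against 59.8%). Members were higher in the remaining lists, most in EpH4 untreated replicate 1 (56.2% against 52.1%). No AP-1 excess of members was thus common to all lists. These shares describe sequences and are not tests of a condition.

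**Figure D2:**
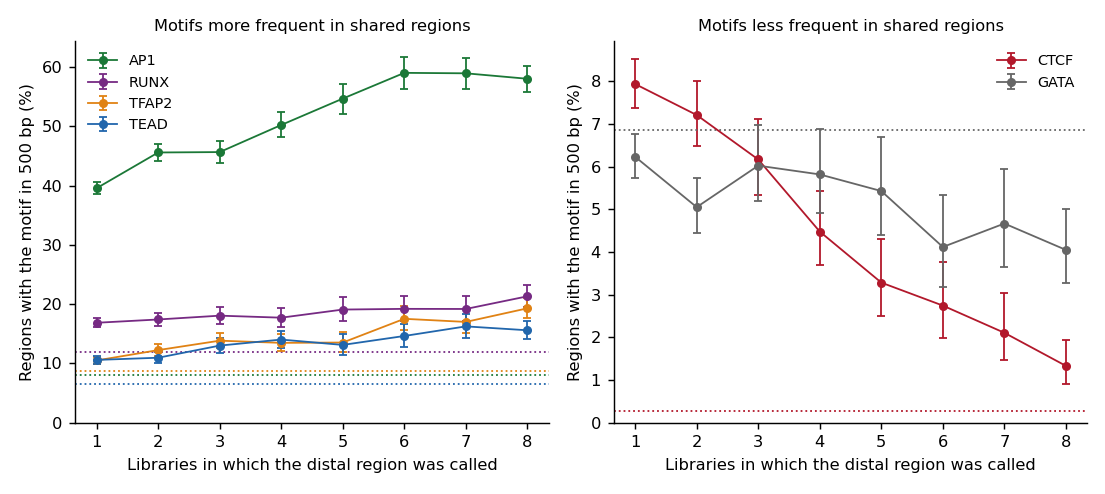
Share of distal regions with a motif in 500 bp around the midpoint (%), by the number of libraries in which the region was called. Points are shares, bars are Wilson 95% intervals, and dotted lines are the shares in windows 10 kb downstream of distal regions. AP-1 goes from 39.5% to 58.0% and CTCF from 7.93% to 1.33%.

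Members with several AP-1 words were also more common. At least 2 words stood in 19.1% of members, against 6.11% of the regions called once and 15.0% of those called in 7 libraries. There were 64 members (3.16%) with 3 or more, against 0.967% of distal regions called in 1 to 7 libraries and 2.18% of those called in 7. The word lay close to the centre, at a median of 40 bp from the midpoint, against 118 bp in the downstream windows, and 58.6% of members with a word had one within 50 bp. In distal regions called once the median was 31 bp. The number of words went with the score in the last class alone. Median mean percentiles were 69.5, 67.6 and 70.8 in members with 0, 1 and 2 words and 79.1 in those with 3 or more. The stretch near Usp7 printed above holds 5 words, and of these 3 stand in a row with gaps of 3 bases.

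The CTCF word showed the opposite order. It stood in 27 members, 1.33% (0.918% to 1.93%), against 7.93% of the regions called once, 4.48% of those called in 4 libraries and 2.11% of those called in 7, and against 0.361% of the downstream windows. The share in regions called once was 5.95 times that in members. A low share was not particular to the members. It was 0.465% (1 of 215) in distal regions called in all 4 EpH4 libraries and no EpRas library, and 3.64% in the reverse class. In promoter regions called in all libraries it was 1.21%. Among the 25% of peaks with the highest scores in each list, 0.852% to 1.66% of those in members held the word, and 1.81% to 5.42% of those in other distal regions did. Of the 27 members, 13 also held an AP-1 word. The highest scored, in an intron of B230307C23Rik, scored 34.79 and 24.64 in EpH4 untreated, 22.69 and 19.10 in EpH4 TGF-β, 34.11 and 36.22 in EpRas untreated and 18.07 and 35.10 in EpRas TGF-β, and the lines overlapped. The one in Smyd3 scored 15.87 to 64.39. Both were chosen after their values were seen.

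Of the other motifs, the TFAP2 word GCCNNNGGC stood in 19.3% of members against 10.5% of the regions called once and 10.2% of the downstream windows. The RUNX word TGTGGTT stood in 21.3% against 16.9% and 12.8%. The TEAD word ACATTCC, bound by the partners of YAP and TAZ, stood in 15.6% against 10.6% and 7.53%. The ETS word CCGGAA stood in 8.64% against 5.92% and 4.80%. The GATA word AGATAAG ran the other way, with 4.05% against 6.23% and 7.74%. These shares were not particular to the members. In distal regions called in 7 libraries they were 17.0% for TFAP2, 19.2% for RUNX, 16.3% for TEAD, 7.15% for ETS and 4.67% for GATA. The TEAD word stood in 22.8% of distal regions called in all 4 EpH4 libraries and no EpRas library, and in 10.7% of the reverse class. The SMAD palindrome GTCTAGAC was rare, with 12 members, 0.592%, against 0.361% of the windows. The words for NF1 and CEBP stood in 3 and 2 members. A match marks letters and not a bound factor, and a short word can miss looser sites.

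Members with and without a motif were compared by the difference of their median log2 score in each library, for the 12 motifs that at least 100 members held. Members with the AP-1 word scored −0.18 to 0.00 relative to those without it, lowest in EpRas untreated replicate 2 and highest in EpRas TGF-β replicate 1. None of 24 comparisons of lines or treatments passed adjustment (exact permutation tests, least adjusted p = 0.457). The least unadjusted p, 0.0286, was that of the word CACCTG, which SNAI and ZEB repressors bind, with a mean of −0.10 in EpRas and −0.05 in EpH4.

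The members were spread over many genes, and 1520 of 21924 protein-coding genes (6.93%) were the nearest coding gene of at least 1 member. Myc, the growth-promoting transcription factor, had the most, 14 members at 11.7 to 671 kb from its TSS, beside 21 other distal regions. Of the 14, 8 held an AP-1 word and 10 lay in introns, many of them at Pvt1, the long noncoding gene downstream of Myc. Mean percentiles went from 40.3 to 87.4. The highest, chr15:62320968-62321343 at 334 kb, scored 23.74 and 18.82 in EpH4 untreated, 16 and 21.42 in EpH4 TGF-β, 28.56 and 31.28 in EpRas untreated and 63.18 and 38.24 in EpRas TGF-β. Every EpRas library was above every EpH4 library there, but the difference of 0.57 ± 0.24 (SE, log2) was not called (limma, adjusted p = 0.293). At chr15:62658566-62659125, the farthest, the EpRas libraries scored 10.18 to 14.75 and the EpH4 libraries 11.80 to 22.26, and the groups overlapped.

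**Figure D3:**
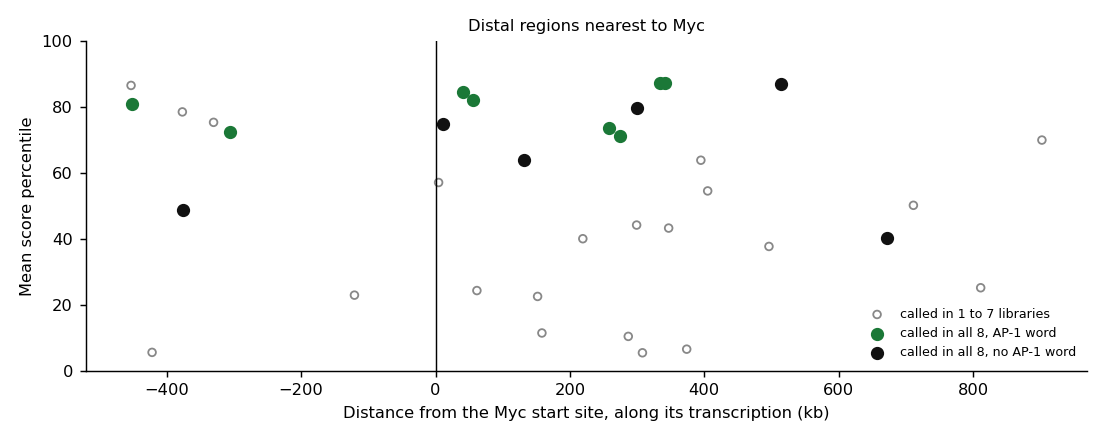
Distal regions whose nearest coding gene was Myc. The x axis is the distance from the Myc start site along its transcription (kb) and the y axis the mean score percentile in the libraries where the region was called. Filled points are the 14 members, green where the AP-1 word was found, and open points are the 21 regions called in 1 to 7 libraries. Members lie on both sides of the start, 11 of them downstream.

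Nfatc2, a calcium-regulated transcription factor, had 12 members at 2.71 to 124 kb, of which 10 held an AP-1 word, with 14 words in all. Their mean percentiles reached 97. Irf2bp2, a transcriptional corepressor, had 7, and Efnb2 (the ligand ephrin-B2), Myof (myoferlin, a membrane repair protein), Rbpj (the DNA-binding factor of Notch signalling), Runx1 and Sfi1 had 6 each. Gm3376 on the Y chromosome also had 6, and 5 of these had over 50% repeated words and 3 a near-constant score. Bach2, which encodes a partner of small MAF proteins related to AP-1, had 5 members and all 5 held the AP-1 word. No member of these 10 genes was called in any comparison. Other genes also had 5 members, and Bach2 was the first of them by name. The word stood in all 5 at Glrp1, in 2 of 5 at Tnc and in 1 of 5 at Zfp36l2.

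In all, 289 members (14.3%) lay close to another, at the gap commonly used to join enhancers, in 132 groups, and 18 groups had 3 or more. The densest was 5 members within 4.48 kb near Sfi1 on chromosome 11, without any AP-1 word. The next was 5 members over 27.2 kb in introns at Dlgap1 on chromosome 17, of which 4 held 9 AP-1 words. Groups of 4 stood near Zfp36l2 (an RNA-binding protein that shortens mRNA life), in Gsto2 and Itprip, and near Rab39b on chromosome X, and a group of 3 in Uqcc1. None of these 4 groups held an AP-1 word. The Uqcc1 group was the first along the genome among many groups of 3. Most of the others held the word, in all 3 members of a group at Nfatc2.

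Gene lists chosen for the cells and the treatment had members more often than the 6.93% of all coding genes. The number of distal regions per gene was not adjusted for, and no test was made. In the TGF-β pathway 9 of 20 genes had 15 members, 9 of which held an AP-1 word. They included 4 at Ltbp1 (which stores latent TGF-β in the matrix), 2 each at Smad3, Smad7 (the inhibitory SMAD) and Smurf1. The median over the 15 members was −0.17 between lines and 0.03 with TGF-β on the log2 scale, against −0.03 and 0.01 over all members.

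Among Ras and MAP kinase feedback genes 8 of 24 had 16 members and 13 of these held an AP-1 word. Dusp10, a phosphatase of stress kinases, had 5, Phlda1 3 and Dusp6, the ERK phosphatase, 2. The list's median was −0.05 between lines and −0.17 with TGF-β. AP-1 factors had 9 members at 4 of 15 genes, with 5 at Bach2, 2 at Jun and 1 each at Fosl1 and Batf3. The Fosl1 member lay 2.42 kb away and scored 20.43 to 37.40. RUNX, CEBP and NFI factors had 12 at 4 of 12 genes, 6 at Runx1, 4 at Nfib and 1 each at Runx2 and Runx3. At Nfib the member chr4:82435833-82436236 scored 10.74 to 28.46 in EpH4 and 34.79 to 65.06 in EpRas without overlap (1.05 on the log2 scale, limma, adjusted p = 0.112). ETS factors had 2 members at 2 of 21 genes. The one at Etv4, an ETS activator of invasion genes, lay 22.1 kb away and scored 16.69 and 17.19 in EpH4 untreated, 28.68 and 20.38 in EpH4 TGF-β, 26.63 and 17.02 in EpRas untreated and 61.08 and 36.20 in EpRas TGF-β. Treated libraries were higher within each line there (0.57 ± 0.20, SE, log2, not called).

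Mesenchymal and matrix genes had 20 members at 11 of 33 genes, with 5 at Tnc (tenascin C), 3 at Fn1 and 3 at Timp3, an inhibitor of metalloproteinases. A Tnc member named after its values were seen, chr4:64324344-64324877, scored 13.97 and 10.36 in EpH4 untreated, 9.07 and 10.06 in EpH4 TGF-β, 10.65 and 10.23 in EpRas untreated and 56.99 and 23.37 in EpRas TGF-β. It was high in the EpRas TGF-β libraries alone, and the interaction of 1.73 ± 0.47 (SE, log2) was not called (limma, adjusted p = 0.866). The Fn1 member printed above scored 15.71 to 17.64 in EpH4 and 21.41 to 37.39 in EpRas, and its normalized difference of 0.24 was not called (limma, adjusted p = 0.615). Snai1, the repressor of E-cadherin, had a member at chr2:167543190-167543759, 5.28 kb away and named after its values were seen. It scored 10.61 and 9.77 in EpH4 untreated, 32.15 and 22.93 in EpH4 TGF-β, 19.01 and 9.69 in EpRas untreated and 33.04 and 23.56 in EpRas TGF-β. Every treated library was above every untreated one, by 1.00 ± 0.23 (SE, log2) after normalization, and the difference was not called (limma, adjusted p = 0.608).

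Epithelial junction and identity genes had 13 members at 11 of 35 genes, with 3 at Klf4 and 1 each at Cldn3, Tjp1 and others, and none at Cdh1. Their medians were −0.04 between lines and −0.06 with TGF-β. Integrins and laminins had 7 members at 6 of 20 genes, with 2 at Itgb5 and a median of 0.38 between lines. Hippo and YAP target genes had 10 members at 9 of 17 genes, with 2 at Tead1 and 1 each at Lats2 (the YAP kinase), Wwtr1 (TAZ), Ankrd1 and Ccn1. Keratins had 3 members, 2 at Krt80 and 1 at Krt18, all with an AP-1 word. No list had a called member. The number with an unadjusted p under 0.05 for the lines was 0 to 2 in each, beside 317 of all 2026 members.

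Scores were compared between the lines over all 4259 regions called in every library (limma on quantile-normalized log2 scores, Benjamini-Hochberg). Of all regions 0.211% were called higher in EpRas and 0.0235% lower. Of the 2026 members 5 were higher and 1 was lower, which is a small share in either view. Without adjustment 129 and 188 of these members had p under 0.05, and the unadjusted share over all regions was not counted. None of the 6 was called when any 1 library was left out, although the differences stayed close in size, for example at 1.49 to 1.68 in the highest scored of them and 1.17 to 1.32 in the member 689 kb from Mmp16. Median centring called all 6 and raised the counts to 17 higher and 31 lower. All 6 had no overlap between lines in the scores as deposited. They were picked by the line difference in these same scores, so this adds no support. The share of all regions without overlap was not counted.

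Both members in introns at Def8, a regulator of lysosome positioning, were higher in EpRas. At chr8:123433776-123434588 the scores were 62.04 and 63.59 in EpH4 untreated, 115.54 and 74.17 in EpH4 TGF-β, 231.88 and 182.10 in EpRas untreated and 320.05 and 242.73 in EpRas TGF-β. The difference was 1.58 ± 0.21 (SE, log2; limma, adjusted p = 0.0231). At chr8:123425847-123427272 they were 45.81 and 42.84, 105.31 and 69.56, 143.47 and 158.44, and 232.03 and 169.22 in the same order, with a difference of 1.22 ± 0.21 (limma, adjusted p = 0.0416). In each line the treated libraries also scored higher than the untreated ones. Their normalized TGF-β differences of 0.46 ± 0.21 and 0.58 ± 0.21 were not called (limma, adjusted p = 0.773 and 0.760).

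These 2 regions are not independent. They shared 445 words of 36 bases, 57.2% of the words of the first and 32% of those of the second, and 85.7% of the words of the first stood elsewhere in the genome. Of 4 regions whose overlap of words with the first reached 10% of the words of either region, 3 were called in EpRas libraries alone. Of these, chrY:4803364-4803589 and chrY:4795505-4795793 were called in only 1 library each. The other, chr1:170941900-170942590, was called in all 4 EpRas libraries and in no EpH4 library. The share of all regions called in EpRas libraries alone was not counted beside this. How reads were placed among these copies was not tested.

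The member chr16:3122732-3123179, 14.4 kb from the gene model Gm49554, also had repeated sequence in 71.7% of its words. It scored 24.44 and 16.47 in EpH4 untreated, 30.81 and 27.60 in EpH4 TGF-β, 66.73 and 59.41 in EpRas untreated and 93.61 and 78.30 in EpRas TGF-β, a difference of 1.35 ± 0.22 (SE, log2; limma, adjusted p = 0.0297). It shared words with chr16:3343403-3343758, which was called in 1 EpH4 and 4 EpRas libraries, and with chr13:3406563-3406911, called in 3 and 4.

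The remaining 2 members that were higher in EpRas had no repeated words. At chr4:17163472-17163993, which lay between genes, 92.6 kb from Gm11849 and 689 kb from Mmp16, a membrane metalloproteinase, the scores were 10.77 and 12.56 in EpH4 untreated, 13.66 and 10.16 in EpH4 TGF-β, 28.30 and 23.35 in EpRas untreated and 59.66 and 37.19 in EpRas TGF-β. The difference was 1.24 ± 0.20 (SE, log2; limma, adjusted p = 0.0297), and the region held no AP-1 word. The region chr4:89061596-89062008 lay in an intron of the long noncoding gene Wincr1 and 75.3 kb from the TSS of Mtap. Its scores were 15.53 and 11.44, 14.01 and 11.97, 27.19 and 50.91, and 61.84 and 46.27 in the same order. The difference was 1.38 ± 0.25 (SE, log2; limma, adjusted p = 0.0472), and both AP-1 words of this region are seen in the sequence above.

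**Figure D4:**
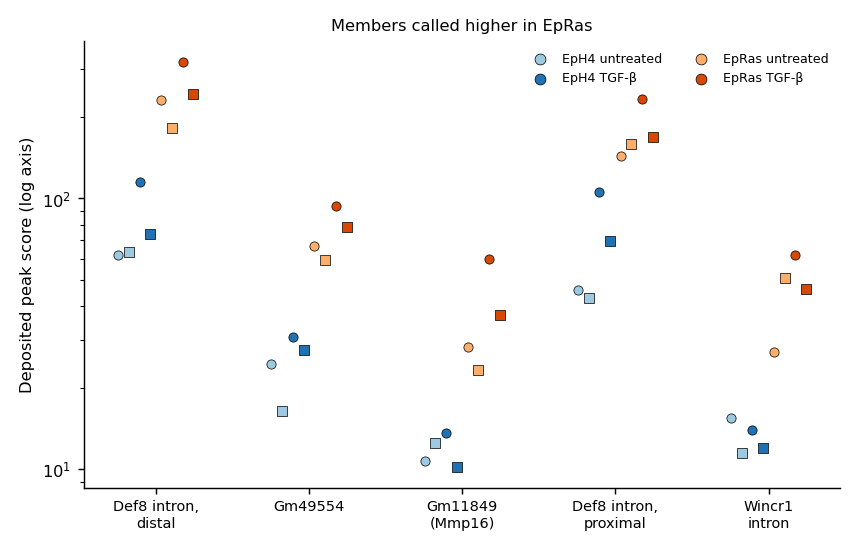
Deposited peak score (y axis, log scale) of the 5 members called higher in EpRas (x axis), with circles for replicate 1 and squares for replicate 2, coloured by group. EpRas points lie above EpH4 points in all 5 members.

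The single member called lower in EpRas scored 50.20 and 40.29 in EpH4 untreated, 32.90 and 33.15 in EpH4 TGF-β, 14.87 and 22.50 in EpRas untreated and 14.70 and 12.31 in EpRas TGF-β. The difference of −1.59 ± 0.24 (SE, log2; limma, adjusted p = 0.0297) was the largest in size of the 6, by a narrow margin over the first Def8 member, and every EpRas library was below every EpH4 library.

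No member was called with TGF-β in either direction (limma, 0% of all regions called). None was called for the interaction, which compares the TGF-β effect in EpRas with that in EpH4 (0% of all regions called). At an unadjusted p under 0.05, 75 of the 2026 members were higher and 53 lower with TGF-β, and 84 and 43 for the interaction. The unadjusted share over all regions was not counted, so these numbers are no result about the members. The lowest p with TGF-β was that of chr17:27976277-27976698 in an intron near Anks1, named after its values were seen. It scored 11.37 and 14.00 in EpH4 untreated, 35.22 and 17.91 in EpH4 TGF-β, 14.87 and 11.31 in EpRas untreated and 49.86 and 33.47 in EpRas TGF-β, by 1.06 ± 0.21 (SE, log2; limma, adjusted p = 0.608), with all treated libraries above all untreated ones. The lowest p of the interaction was that of chr1:150151374-150151758, 51.2 kb from Ptgs2, the inducible cyclooxygenase, also named after its values were seen. It scored 22.81 and 15.86 in EpH4 untreated, 9.30 and 11 in EpH4 TGF-β, 18.94 and 10.09 in EpRas untreated and 56.24 and 36.20 in EpRas TGF-β. Treated libraries were lower in EpH4 and higher in EpRas, with TGF-β differences of −0.99 and 1.26 on the log2 scale, and the interaction, the gap between these, was 2.26 ± 0.49 (SE, log2; limma, adjusted p = 0.866). With a variance prior that followed the mean score, 2 members were called higher with TGF-β, both at Def8.

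Members were uneven along the genome. Chromosome 1 held 205 and chromosome 11 held 176, chromosome 19 had the most per length (1.69 per Mb) and the largest share of its distal regions of any autosome among the members (12%), and chromosomes 12, 14 and 18 held 20, 23 and 31. On chromosome 12 members were 2.46% of the distal regions. That chromosome took 1.54% to 2.34% of the distal peaks in EpH4 libraries and 3.43% to 3.83% in EpRas libraries. On chromosome 6 the shares were 6.58% to 7.41% in EpH4 and 4.11% to 4.69% in EpRas. Such a gap was not particular to these chromosomes, and the lines did not overlap on most autosomes. On chromosome 2 the shares were 5.61% to 6.21% in EpH4 and 7.54% to 7.92% in EpRas. The lines overlapped on chromosome 10, at 4.61% to 5.18% and 4.79% to 5.26%.

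The median log2 score of the members of each chromosome, relative to all members, was compared between lines for the 19 autosomes, after the shares above were seen. On chromosome 6 it was −0.24 ± 0.04 in EpRas and 0.03 ± 0.05 in EpH4 (SD, n = 4, exact permutation p = 0.0286, adjusted p = 0.0776). On chromosome 5 the EpRas libraries were lower by 0.26 and on chromosome 9 by 0.16, whereas they were higher by 0.23 on chromosome 18, 0.21 on chromosome 15, 0.15 on chromosome 7 and 0.15 on chromosome 1. In all 7 no EpRas library overlapped an EpH4 library, and none passed adjustment, since the smallest adjusted p reached was 0.0776. Promoter regions called in all libraries differed by −0.34 on chromosome 6, −0.39 on chromosome 5 and 0.21 on chromosome 15. They differed by −0.11 on chromosome 9, 0.28 on chromosome 18, 0.15 on chromosome 7 and only 0.02 on chromosome 1. With TGF-β no chromosome had an unadjusted exact permutation p under 0.05. Of the 6 called members, none lay on these 7 chromosomes.

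**Figure D5:**
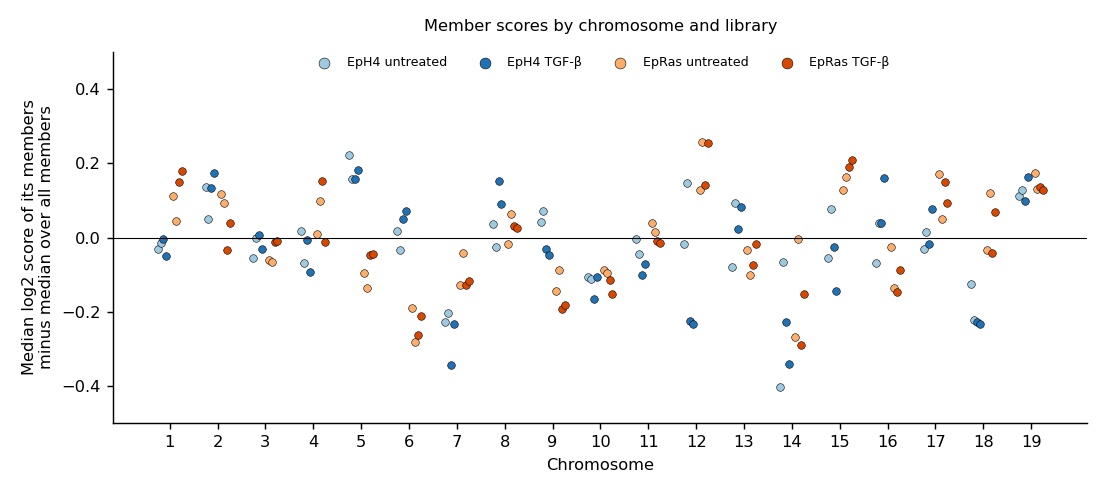
Median normalized log2 score of the members of each autosome minus the median over all members (y axis, log2), 1 point per library, coloured by group. EpRas points lie below EpH4 points on chromosomes 5, 6 and 9 and above them on chromosomes 1, 7, 15 and 18.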

How the data were processed

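Per the labels and the study's methods, FAIRE DNA was sequenced on an Ion Proton, reads were trimmed to 36 bases and aligned to mm10 with Bowtie2, and peaks were called per library with MACS2 2.0.9. Handling of duplicates and of any control is not given in the sources used here. The deposited lists give positions and a score without a stated unit, which the authors' peak caller made. There were no counts, so depth and counting precision are unknown, and intervals on shares cover the number of regions only.

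Peaks sharing 1 bp were merged. TSSs were those of all 132758 transcript starts of GENCODE M21 (mm10). Score contrasts used limma 3.58.1 (R 4.3.3) with 4 group means and a 0.05 limit on the adjusted p, after a check on simulated data. Library values used exact permutation tests over all assignments, written in Python 3.11.15 with numpy 2.4.6. Motifs were searched on both strands in 500 bp around the midpoint, as exact words, with N for any base. Besides the words given in the report they were those of GRHL (AACCNGTT), KLF (GGGTGTG), SP (GGGCGG), USF and MYC (CACGTG), FOX (TGTTTAC), STAT (TTCCNGGAA), CREB (TGACGTCA), NFY (CCAATCA), CEBP (TTGCGCAA), p53 family, NRF1 and NFKB. Words of 36 bases, the read length, were counted over the mm10 genome to find repeated sequence. Genes were assigned by the nearest protein-coding TSS. Named by rule were the 12 highest members by mean percentile, up to 6 called members per contrast and direction, the 6 densest groups, the 3 genes with most members per list, the 3 regions on each side of a limit, and the 10 genes with most members. The members and lists were chosen with earlier results of these data known. Some items, including the position and sequence of the member lower in EpRas, are not reported here.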

Additional observations from a re-analysis of the deposited data

How the results depend on the processing

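The number of members was 1146 with 10821 peaks taken from each list and 1663 to 2311 under the other rules for distance, TSS set, overlap and members kept, and leaving out a library gave 2037 to 2409. The share of members with the AP-1 word was 49.6% in a 200 bp window and 60.2% without near-constant or repeated members, and 57.1% to 59.3% without any 1 library. The share with the CTCF word was 0.839% in 200 bp and 1.31% to 1.51% without any 1 library. For the difference between lines, median centring gave 17 higher and 31 lower calls, a variance prior with a trend 18 and 18, and the logit of the percentile, the fit of members alone and the count without near-constant or repeated members 3 higher each, the last with 0 lower. Leaving out any library gave 0 to 0 calls in both directions. This left fewer samples, with a lone library assumed to vary like the other groups. The 6 calls were all made under median centring as well. The 6 called differences kept their sign in all 13 alternatives and their call in 2 to 5 of them. With TGF-β, the trend gave 2 higher, and no other setting gave a call. The EpRas difference in the share of distal peaks reversed to 0.370 points with equal peaks, and leaving out a library gave −11.0 to −4.82 points. Leaving out a library moved the other library differences to 2.12 to 8.03 percentile points and 11 to 31.5 bp between lines, and to 1.93 to 9.60 percentile points, 5.17 to 28.25 bp and −11.3 to −2.27 points with TGF-β.

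Replicate numbers were shared between groups but did not pair the libraries, since the deviations of same-numbered libraries correlated at −0.014 to 0.030. With the replicate number as a block, 3 members were higher and 1 was lower in EpRas, and no call was made with TGF-β or for the interaction.

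The chromosome medians kept their sign without any 1 library, at −0.27 to −0.24 for chromosome 5, −0.29 to −0.25 for chromosome 6 and 0.18 to 0.25 for chromosome 15. The variance trend, the removal of near-constant or repeated members, the basic TSS set and the chromosome settings were added after the data were seen. A region missed at this unknown depth may still be open, and a score difference of under about the replicate spread could not be seen.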
